A study of Homo sapiens with 4 samples.

Results

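H3K9me3, the trimethylated form of lysine 9 on histone H3, was profiled by ChIP-seq in the endometrial cancer cell line Ishikawa, an established human line. The peaks called around the centromeres of chromosomes 17, 18 and 20 are described here. Peaks were kept where their summit, the base of highest signal, lay in 1 window per chromosome of the hg38 build: 17 to 32 Mb on chromosome 17, 10.4 to 25.9 Mb on chromosome 18 and 20.6 to 35.4 Mb on chromosome 20. The windows held 327 of the 4950 called peaks, 123 of 1165 in cells labelled NC, with the treatment given as none, and 204 of 3785 in cells labelled OE-KDM4A. The labels give no vector, clone or expression level for OE-KDM4A, and both conditions share the same medium, formaldehyde fixation and sonication. Few peaks lay near the edges of the windows: within 1 Mb of an edge, each list had at most 1 peak inside it and at most 2 outside it. Each condition had 1 immunoprecipitated and 1 input library. With 1 library per condition there is no replicate check and no test between the conditions, and every interval below is an exact 95% interval that covers counting error only.

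H3K9me3 marks silenced heterochromatin, and the repeats on and beside human centromeres are among its best known sites. KDM4A is a demethylase that removes methyl groups from trimethylated lysine 9 of histone H3. The core of a human centromere consists of alpha satellite, a tandem repeat, which hg38 represents by modelled sequence, and the flanks hold further satellites and duplicated segments. A short read from such repeats may match many copies equally well, so the copy that gave rise to a peak in these regions is uncertain. The input library matters for the same reason, because a repeat with more copies in the cells than in the assembly is raised in ChIP and input together.

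The 3 regions differed in how many peaks they held and in how the lists compared. On chromosome 17 there were 54 peaks in NC and 88 in OE-KDM4A, on chromosome 18 there were 23 and 24, and on chromosome 20 there were 46 and 92. The ratio of OE-KDM4A to NC was 1.63 (1.15 to 2.33) on chromosome 17, 1.04 (0.564 to 1.93) on chromosome 18 and 2 (1.39 to 2.91) on chromosome 20. Outside the 3 windows it was 3.44 (3.21 to 3.69). Over all peaks, the interval of each region lay below that of the peaks elsewhere, and the interval of chromosome 18 included equal numbers. This order depended on the limits. With a −log10 q limit of 10 the ratio elsewhere was 2.65 (2.29 to 3.06). The intervals of chromosome 17 (1.56, 0.995 to 2.47) and chromosome 20 (2, 1.12 to 3.67) overlapped that interval. Only that of chromosome 18 (0.583, 0.195 to 1.61) lay below it. With the lists cut to equal length by −log10 q the ratio was 0.992 elsewhere (0.910 to 1.08) and 1.26 on chromosome 17 (0.868 to 1.83). On chromosome 20 it was then 1.15 (0.762 to 1.75) and on chromosome 18 it was 0.435 (0.185 to 0.95). At a fold enrichment of at least 5 it was 6.28 elsewhere and 3.29 on chromosome 17, and with peaks within 10 kb joined it was 1.03 on chromosome 17. As a share of the list, the regions together made up 10.6% in NC (8.85 to 12.5) and 5.39% in OE-KDM4A (4.69 to 6.16). The share was lower in OE-KDM4A in each region, at 4.64% and 2.32% for chromosome 17, 1.97% and 0.634% for chromosome 18, and 3.95% and 2.43% for chromosome 20.

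Regions taken to stand for the centromeres of other chromosomes gave a nearer comparison. On 15 other chromosomes (1 to 12, 16, 19 and X) the longest stretch without a RefSeq gene, with 5 Mb on either side, held 300 NC and 939 OE-KDM4A peaks, a ratio of 3.13 (2.75 to 3.58). Their ratios ran from 1.69 on chromosome 5 to 11.3 on chromosome 3, with a median of 3.17. Measured in the same way, chromosome 18 had the lowest of the 18 ratios, chromosome 17 the next lowest and chromosome 20 the fourth lowest. The intervals of chromosomes 17 and 20 overlapped those of many single chromosomes, as the plot of ratios by chromosome shows.

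**Figure D1:**
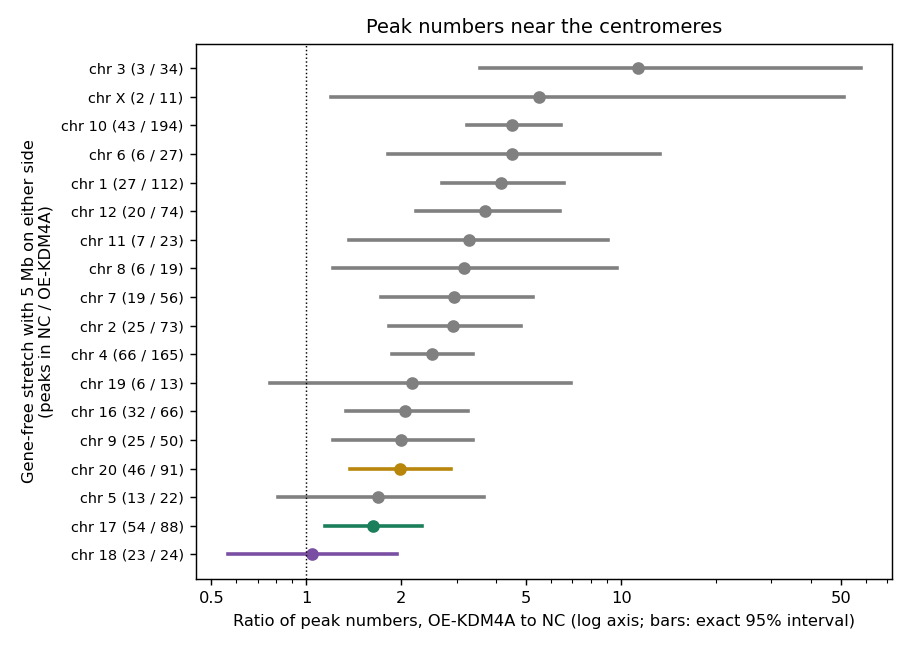
Ratio of peak numbers, OE-KDM4A to NC (horizontal log axis), in the longest gene-free stretch of each chromosome with 5 Mb on either side. Points are ratios, bars exact 95% intervals of 2 counts, and the numbers of NC and OE-KDM4A peaks stand beside each chromosome. Chromosome 18 lies at 1.04, the lowest point, and chromosome 3 at 11.3, the highest.

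The peaks were not spread evenly over the windows, and the arrangement differed between chromosomes. The longest gene-free stretch stood in for the centromere, whose coordinates were not used. Peaks beside it, in what are called the flanks below, may therefore still lie in centromeric repeats. The stretch ran from 22705637 to 26981691 on chromosome 17 (4.28 Mb) and from 26251589 to 28580632 on chromosome 20 (2.33 Mb, ending at the pseudogene FRG1CP). On chromosome 18 it was 5.62 Mb long. On chromosome 18, 20 NC and 17 OE-KDM4A peaks lay inside the stretch, with 2 and 4 on its lower-coordinate side and 1 and 3 on its higher-coordinate side. On chromosome 17, 35 NC and 61 OE-KDM4A peaks lay inside, 15 and 26 on the lower-coordinate side and 4 and 1 on the higher-coordinate side. On chromosome 20, 24 and 28 lay inside, 0 and 1 below, and 22 and 63 above.

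Most of the difference in peak number between the lists on chromosome 20 lay on that higher-coordinate side, towards the long arm. There the ratio was 2.86 (1.74 to 4.89), while inside the gene-free stretch it was 1.17 (0.652 to 2.1). The first interval holds the 3.44 outside the windows and the 3.13 of the 15 other stretches, so that side was not above them. Inside the stretch of chromosome 17 the ratio was 1.74, and inside that of chromosome 18 it was 0.850 (0.418 to 1.71). In steps of 1 Mb, the fullest step of chromosome 17 was 26 to 27 Mb, with 24 NC and 45 OE-KDM4A peaks, followed by 21 to 22 Mb with 13 and 24. On chromosome 20, the step from 27 to 28 Mb held 12 in each list, that from 28 to 29 Mb held 7 and 25, that from 29 to 30 Mb held 1 and 14, and that from 31 to 32 Mb held 17 and 32. No step of chromosome 18 held more than 5 peaks of a list.

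**Figure D2:**
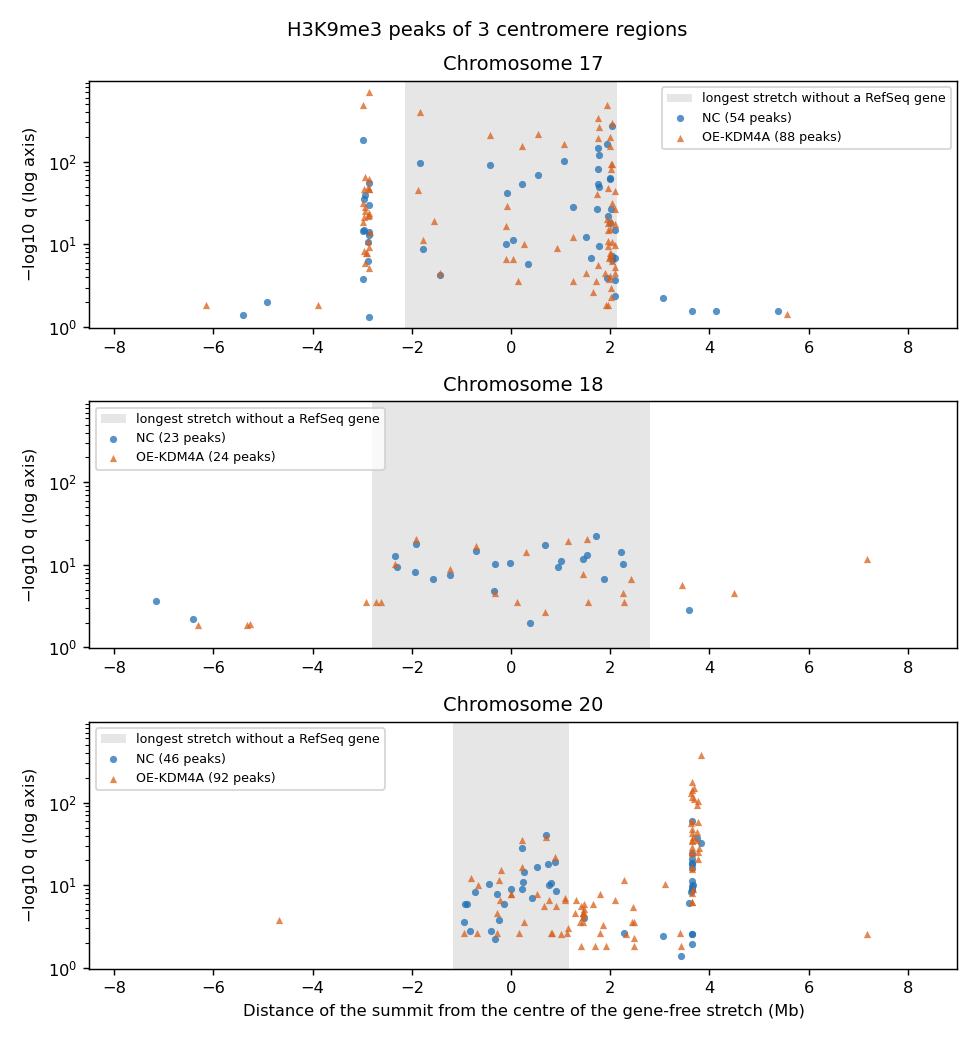
Position of every H3K9me3 peak of the 3 regions (horizontal axis, Mb from the centre of the gene-free stretch) against its −log10 q (vertical log axis), for NC (circles) and OE-KDM4A (triangles). Grey marks the longest stretch without a RefSeq gene: the peaks of chromosome 18 are scattered and reach a −log10 q of at most 22.2, while chromosomes 17 and 20 have narrow columns of strong peaks.

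Peaks of chromosomes 17 and 20 came in dense clusters and those of chromosome 18 did not. With peaks of both lists joined where neighbours lay within 10 kb, chromosome 17 gave 41 clusters, of which 23 held a single peak, and the largest held 37. Chromosome 18 gave 39 clusters, of which 31 held a single peak and none held more than 2. Chromosome 20 gave 65, of which 43 held a single peak and the largest held 36. The median gap between neighbouring peaks was 18.7 kb in NC and 6.79 kb in OE-KDM4A on chromosome 17, 319 and 390 kb on chromosome 18, and 37.2 and 18.7 kb on chromosome 20.

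On chromosome 17 the largest cluster lay at the end of the gene-free stretch, from 26782922 to 26885918, a span of 103 kb with 10 NC and 27 OE-KDM4A peaks. It is 408 kb from the nearest protein-coding gene, WSB1, whose product is a substrate receptor of a ubiquitin ligase. A pair of clusters lay on the other side of the stretch, from 21854269 to 21906519 (6 NC and 10 OE-KDM4A peaks, 150 kb from the potassium channel gene KCNJ18) and from 21952904 to 21991482 (7 and 12 peaks). A cluster from 26594781 to 26620158 held 6 NC and 4 OE-KDM4A peaks, so the list with more called peaks was not the same in every cluster. It had 8 summits in each list, and the OE-KDM4A peaks covered more of it (7.46% against 4.55%). The OE-KDM4A peaks starting at 26603668 and 26619407 each overlapped 2 NC peaks.

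The densest cluster of chromosome 20 ran over 24.0 kb, from 31052013 to 31076002, and lay 182 kb from DEFB115, a gene of the beta-defensin family of antimicrobial peptides. It held 15 NC and 21 OE-KDM4A peaks, and their peak bodies covered 13.6% of its length in NC and 70.4% in OE-KDM4A. The lists give 1 line per summit, and here they gave 19 summits in NC and 74 in OE-KDM4A. All 15 NC peaks overlapped an OE-KDM4A peak, and 10 of the 21 OE-KDM4A peaks overlapped an NC peak. Fold enrichment, the authors' ratio of ChIP to control background at a summit, lay between 1.86 and 4.61 in NC and between 3.02 and 18.4 in OE-KDM4A. The median control background at the summits was 24.3 fragments in NC and 7.90 in OE-KDM4A, and its part in the wider peaks was not tested.

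**Figure D3:**
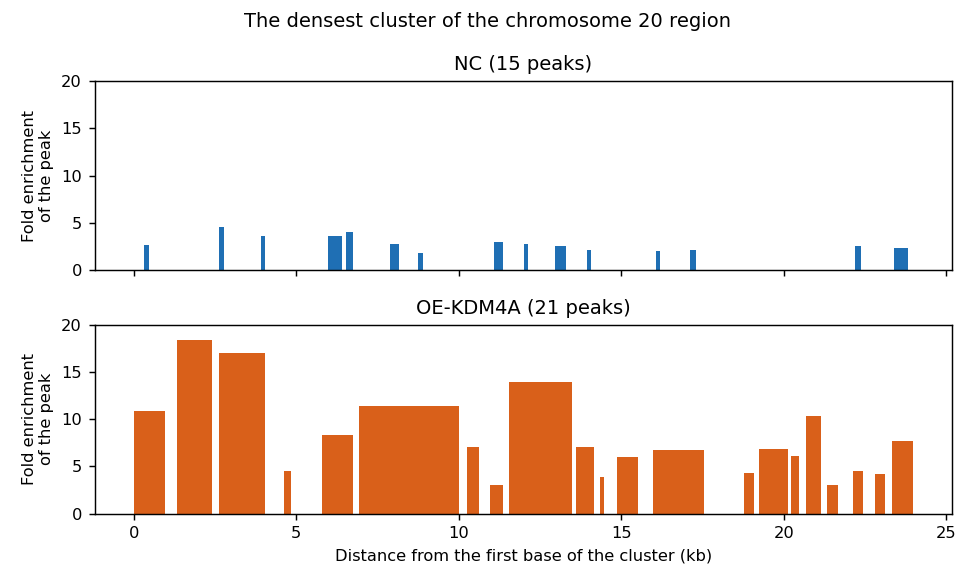
The densest cluster of the chromosome 20 region, with distance from its first base (kb, horizontal axis) and the fold enrichment of each peak (vertical axis) for NC above and OE-KDM4A below. Each bar spans 1 called peak: the 15 NC peaks are narrow and at most 4.61 high, and the 21 OE-KDM4A peaks cover 70.4% of the cluster and reach 18.4.

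Other clusters of chromosome 20 held mainly OE-KDM4A peaks, in a list with 3.25 times as many peaks as that of NC. From 28860689 to 28889487 there were 8 OE-KDM4A peaks and 1 NC peak. From 29881786 to 29900149, near DUX4L37, a pseudogene of the double homeobox family DUX4, and from 31184844 to 31189331 there were 4 OE-KDM4A peaks each and no NC peak. In the second of these the OE-KDM4A peaks covered 38.7% of the length.

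Covered length followed the clusters. The NC peaks covered 8.84 kb on chromosome 17, 3.36 kb on chromosome 18 and 8.23 kb on chromosome 20, and the OE-KDM4A peaks covered 16.8, 3.28 and 29.3 kb. Peaks wider than 300 bp made up 3.95% of the NC list and 6.92% of the OE-KDM4A list. They numbered 2, 0 and 4 on chromosomes 17, 18 and 20 in NC, and 8, 0 and 23 in OE-KDM4A. The widest OE-KDM4A peak of chromosome 20, from 31058947 to 31062029 inside the densest cluster, measured 3083 bp and was the widest of the whole OE-KDM4A list. It combined 16 summits at a fold enrichment of 11.4. The widest NC peak of that chromosome, from 31075397 to 31075829, measured 433 bp. On chromosome 17 the widest were 474 bp in NC (21976654 to 21977127) and 752 bp in OE-KDM4A (26619407 to 26620158). On chromosome 18 they were 224 bp in NC (16555758 to 16555981) and 192 bp in OE-KDM4A (19288386 to 19288577).

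The peaks also differed in strength, given here as −log10 q, the peak caller's evidence for a peak after correction for multiple testing. The median on chromosome 17 was 14.6 in NC and 16 in OE-KDM4A. On chromosome 18 it was 10.3 and 4.57, and on chromosome 20 it was 8.98 and 6.71. A −log10 q of at least 10 was reached by 28.2% of all NC peaks and 21% of all OE-KDM4A peaks. In NC it was reached by 34 peaks of chromosome 17 (63.0%), 12 of chromosome 18 (52.2%) and 19 of chromosome 20 (41.3%). In OE-KDM4A it was reached by 53 (60.2%), 7 (29.2%) and 38 (41.3%). Each share was thus the larger number beside its list, though that of chromosome 18 in OE-KDM4A rests on 7 of 24 peaks. In the 15 other stretches the shares were 54.7% in NC and 51.9% in OE-KDM4A. Chromosome 17 stood above these in both lists, and chromosomes 18 and 20 stood below them in both, by little for chromosome 18 in NC. None of these differences was tested. At a limit of 100, chromosome 17 had 6 NC and 14 OE-KDM4A peaks, chromosome 20 had 0 and 8, and chromosome 18 had none in either list.

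The strongest OE-KDM4A peaks of chromosome 17 lay at 21972970 to 21973185 (−log10 q 697, fold enrichment 18.7), 21863159 to 21863352 (486 and 14.7) and 26782922 to 26783176 (485 and 35.3). The strongest in NC lay at 26885713 to 26885884 (274 and 7.29), 21863185 to 21863341 (185 and 3.87) and 26782973 to 26783134 (165 and 4.15). The second of each list is the same site, and so is the third.

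On chromosome 20 the strongest OE-KDM4A peak, at 31241546 to 31241974, had a −log10 q of 374 and a fold enrichment of 32.3 and lay 15.7 kb from DEFB115. It was followed by 31054626 to 31056057 (180 and 17) in the densest cluster, and by 31105988 to 31106105 (149 and 35.7). The last was called in OE-KDM4A alone and had the highest fold enrichment of the region. In NC the strongest was 31054650 to 31054790 (60.5 and 4.61), then 28117154 to 28117353 (40.3 and 13.3) and 31157747 to 31157897 (37.5 and 4.29). All but 28117154 to 28117353 lay on the higher-coordinate side of the gene-free stretch.

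The strongest peaks of chromosome 18 were weaker. In NC they lay at 19848137 to 19848295 (−log10 q 22.2, fold enrichment 13.5), 16224668 to 16224836 (17.7 and 7.23) and 18819984 to 18820139 (17.4 and 9.27). In OE-KDM4A they lay at 16224681 to 16224843 and 19669496 to 19669671 (20.8 and 12.6 each) and at 19288386 to 19288577 (19.4 and 12.1). The nearest OE-KDM4A peak to the strongest NC peak was 156 kb away, so the highest ranks of this chromosome were only partly at the same sites. The median fold enrichment in NC was 7.35 on chromosome 18, the highest of the 3 regions, 4.36 on chromosome 17 and 4.92 on chromosome 20. In OE-KDM4A it was 5.77 on chromosome 18, the lowest, with 6.91 on chromosome 17 and 5.86 on chromosome 20. The highest fold enrichment of an NC peak was nearly equal in the 3 regions, at 13.6 on chromosome 17 (24770790 to 24770943), 13.5 on chromosome 18 and 13.3 on chromosome 20. In OE-KDM4A it was 111, 12.6 and 35.7.

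Sharing between the lists was counted as an overlap of at least 1 bp. Of all NC peaks, 34.7% overlapped an OE-KDM4A peak. The share was 72.2% on chromosome 17 (39 of 54, 58.4 to 83.5), 63.0% on chromosome 20 (29 of 46, 47.5 to 76.8) and 34.8% on chromosome 18 (8 of 23, 16.4 to 57.3). Chromosome 18 thus stood near the whole list, and chromosomes 17 and 20 stood above it, near the 72.7% of the 15 other stretches. Of all OE-KDM4A peaks, 10.2% overlapped an NC peak. The share was 42.0% on chromosome 17 (37 of 88, 31.6 to 53.0), 33.3% on chromosome 18 (8 of 24, 15.6 to 55.3) and 26.1% on chromosome 20 (24 of 92, 17.5 to 36.3), all above it. In the 15 other stretches it was 22.3%.

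Shared peaks were the stronger ones in each region and list. In NC the median −log10 q of shared and unshared peaks was 28.6 and 3.82 on chromosome 17, 12.3 and 8.17 on chromosome 18, and 10.6 and 5.90 on chromosome 20. In OE-KDM4A it was 46.5 and 9.53, 9.61 and 3.58, and 31.8 and 5.75. The gap was smallest in the NC peaks of chromosome 18. Strong peaks found in 1 list alone occurred on each chromosome. On chromosome 17 they were 21885817 to 21885954 (−log10 q 35.3) and 21952904 to 21953036 (10.6) in NC, and 26854701 to 26855234 and 26877302 to 26877508 (93.0 each) in OE-KDM4A. On chromosome 18 they were the first and the third of the NC list above, and 19288386 to 19288577 and 18447461 to 18447591 (14.3) in OE-KDM4A. On chromosome 20 they were 28157337 to 28157468 (18.1) and 27661987 to 27662117 (11) in NC, and 31105988 to 31106105 and 31053344 to 31054437 (130) in OE-KDM4A. The last of these belongs to the densest cluster and lay 212 bp from an NC peak.

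Sites called in both lists were then compared directly. For each NC peak the partner was the overlapping OE-KDM4A peak with the greatest −log10 q, a choice that can favour OE-KDM4A, and values were read at the summits of the respective lists. The summits lay within 50 bp of each other at 35 of 39 sites on chromosome 17, 8 of 8 on chromosome 18 and 19 of 29 on chromosome 20. Over all 404 such sites, 78.7% had a higher fold enrichment in OE-KDM4A. It was higher at 32 of 39 sites on chromosome 17, with a median log2 difference of 1.04 (range −1.08 to 4.63), and at 21 of 29 on chromosome 20, with a median of 0.95 (−1.0 to 3.92). On chromosome 18 it was higher at 4 sites and lower at 4, with a median of 0.12 (−0.58 to 1.01). Chromosomes 17 and 20 stood near the share of all sites, and chromosome 18 rests on 8 sites. The direction on chromosome 20 rested on its densest cluster, where all 15 sites were higher in OE-KDM4A. The summits lay within 50 bp of each other at only 6 of these 15, with a median distance of 183 bp. Most of the 15 thus set values at different bases side by side. Without the cluster, 6 of 14 sites were higher and the median was −0.09.

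Fold enrichment has a numerator and a denominator, and both were recovered at each summit. MACS2 is known to compute it as pileup plus 1 over background plus 1, where the pileup is the number of ChIP fragments stacked at the base and the background is the local input signal scaled to the depth of the ChIP library. The pileup came out as a whole number for all 327 peaks. Over all sites called in both lists, the background was lower in OE-KDM4A at 80.4% and the pileup was lower at 50.3%. The background was lower at 36 of 39 sites on chromosome 17, 4 of 8 on chromosome 18 and 21 of 29 on chromosome 20. The pileup was lower in OE-KDM4A at 27 sites of chromosome 17 and higher at 9, lower at all 8 of chromosome 18, and lower at 13 and higher at 16 of chromosome 20. On chromosome 17, a narrow majority of sites had a higher fold enrichment together with a lower pileup and a lower background.

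Inside the 3 gene-free stretches it was lower in OE-KDM4A at 41 of 49 sites (83.7%, 70.3 to 92.7), with a median log2 difference of −0.54. The median pileup there was 36 fragments in NC and 28 in OE-KDM4A. By chromosome it was lower at 23 of 29 sites on chromosome 17, 8 of 8 on chromosome 18 and 10 of 12 on chromosome 20. In the flanks it was higher in OE-KDM4A at 20 of 27 sites and lower at 7, with a median log2 difference of 0.25. These were 10 sites on the lower-coordinate side of chromosome 17, with a higher pileup at 6, and 17 on the higher-coordinate side of chromosome 20, with a higher pileup at 14. All of those 14 belong to the densest cluster, where 15 NC peaks were set beside 10 distinct OE-KDM4A peaks. The summits there lay within 50 bp of each other at 6 of the 15 sites. Without this cluster the flanks had 6 sites with a higher and 6 with a lower pileup, and a median log2 difference of 0.07. Inside the stretches, without the largest cluster of chromosome 17, the pileup was lower at 32 of 40 sites. Inside the gene-free stretches of the 15 other chromosomes the pileup was lower at 58 and higher at 82 of 145 sites, with a median log2 difference of 0.11.

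The same count was made from the other direction and on another scale, with the same sites, so neither is independent support. Starting from the OE-KDM4A peaks, 41 of 47 sites inside the 3 stretches had the lower pileup in OE-KDM4A (87.2%, 74.3 to 95.2). Expressed in units of the lowest background of each list, which follows the depth of the ChIP library, the pileup was lower at 46 of 49 sites, with a median log2 difference of −0.70. The lowest background was 1.12 times as high in OE-KDM4A as in NC. This scale therefore lowers every log2 difference by the same amount and can only add sites with a lower pileup. On this scale the pileup was also lower at 242 of 378 sites over the whole lists, with a median of −0.17, against −0.008 in fragments. At the sites in the flanks the median was 0.09, and in the 15 other stretches it was −0.04. Without the densest cluster of chromosome 20 the median of the flanks was −0.09, with 6 sites higher and 6 lower. Inside the 3 stretches, 31 of the 49 sites had a higher fold enrichment in OE-KDM4A, with a median log2 difference of 0.51. In the flanks it was higher at 26 of 27, with a median of 1.67. Without the densest cluster of chromosome 20 it was higher at 11 of 12 flank sites, with a median of 0.96. The median background was 4.26 fragments in NC and 0.905 in OE-KDM4A inside the stretches, and 27.3 and 12.4 in the flanks. The sites of 1 region share their libraries and often their repeat sequence, so they are not replicates, and whether the stretches differ from the flanks was not tested.

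**Figure D4:**
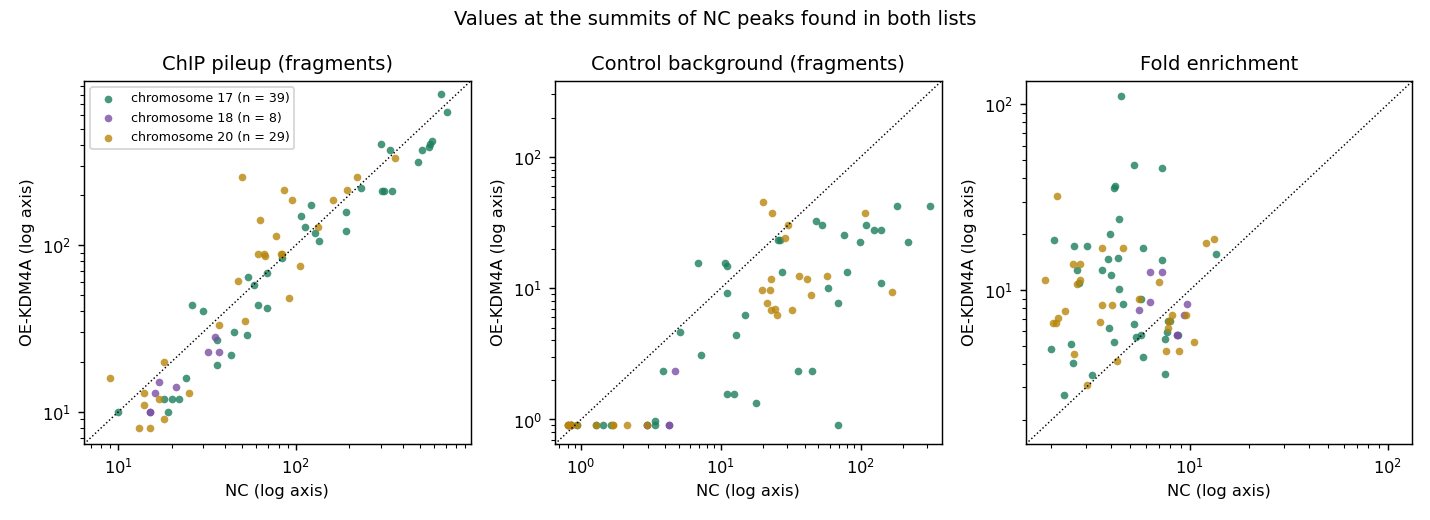
ChIP pileup (fragments), control background (fragments) and fold enrichment at sites called in both lists, NC on the horizontal and OE-KDM4A on the vertical axis, all on log axes, with a dotted line of equal values. Of the points of chromosomes 17, 18 and 20 (39, 8 and 29), most lie below the line for background, and all 8 of chromosome 18 lie below it for pileup.

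In each region, the site with the greatest gain in fold enrichment had a lower pileup and a lower background in OE-KDM4A. On chromosome 17 the site at 23016220 to 23016527 had a fold enrichment of 4.5 in NC and 111 in OE-KDM4A. Its pileup was 312 and 211 fragments, and its background 68.6 and 0.905, the last being the lowest value of the OE-KDM4A list. The difference was thus in the denominator, with the pileup lower in OE-KDM4A. The greatest difference in the other direction on this chromosome was at the site starting at 26101482 in NC, where fold enrichment was 7.55 and 3.56, the pileup 58 in both and the background 6.81 and 15.6.

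On chromosome 20 the greatest difference was at the site beside DEFB115 that starts at 31241630 in NC. Fold enrichment was 2.14 in NC and 32.3 in OE-KDM4A, the pileup 363 and 333, and the background 169 and 9.34. In the other direction, the site starting at 27667617 had a fold enrichment of 10.5 and 5.25 and a pileup of 18 and 9. On chromosome 18 the extremes were smaller. The site starting at 19669541 had a fold enrichment of 6.28 and 12.6, with a pileup of 32 and 23 and a background of 4.26 and 0.905. The sites starting at 17816851 and 20396054 each had a fold enrichment of 8.64 and 5.77 and a pileup of 15 and 10. At least 8-fold higher values in OE-KDM4A occurred at 5 of 39 sites of chromosome 17, 1 of 29 of chromosome 20 and none of 8 of chromosome 18. Their share over all 404 sites was not counted. The upper quartile of the log2 difference was 2.21 over all 404 sites, 2.29 on chromosome 17, 1.88 on chromosome 20 and 0.58 on chromosome 18.

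The control background of the regions differed between the lists over all peaks as well. The median background at the summits was 11.5 fragments in NC and 2.33 in OE-KDM4A on chromosome 17, 0.852 and 0.905 on chromosome 18, and 2.34 and 1.56 on chromosome 20. The lowest background of a list is a floor, the mean over the genome, used where the local input is lower. It was 0.811 in NC and 0.905 in OE-KDM4A. Peaks on this floor made up 8.34% of the NC list and 49.4% of the OE-KDM4A list. In NC they were 0 on chromosome 17, 9 on chromosome 18 (39.1%) and 9 on chromosome 20 (19.6%). In OE-KDM4A they were 20 (22.7%), 18 (75%) and 41 (44.6%). In both lists chromosome 18 held the largest share of peaks on the floor among the 3 regions, the peaks where local input did not exceed the genome mean. A background just above the floor, such as 0.852 in NC, was not counted as on it. Under a background of 2 fragments the lists were closer, with 730 of 1151 NC and 2947 of 3769 OE-KDM4A peaks. On chromosome 18 these were 17 of 23 and 21 of 24.

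The sources used here give no read totals. The background values held a hint of depth, since most of those above the floor and under 20 were whole multiples of 1 step, 0.426 in NC and 0.778 in OE-KDM4A (55 of 68 and 68 of 107 peaks). If this step is 1 input fragment scaled to the ChIP depth, and the shortest peaks, 121 and 108 bp, show the fragment length, then the ChIP library of OE-KDM4A was 1.25 times as deep as that of NC and its input 0.684 times as deep. The settings that these values rest on are not given. In such units the background of the chromosome 17 site with the greatest difference was 161 input fragments in NC and lay at the floor in OE-KDM4A. For the chromosome 20 site beside DEFB115 it was 397 and 12. The part of the 2 input libraries in the fold enrichments was not tested, and copy number of the repeats and recovery of these sequences in each input cannot be told apart.

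Some peaks had equal values. In NC a pair of chromosome 17 peaks, 26573023 to 26573150 and 26856136 to 26856263, had the same width (128 bp), pileup (69), background (11.1) and fold enrichment (5.80). At these sites fold enrichment in OE-KDM4A was 16.8 and 4.37, so the pair was not alike in the other list. The sequence of these peaks was not examined.

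Few genes of the windows carried a peak. Genes were counted if a peak touched the gene span or lay within 5 kb of it. Among all protein-coding genes 2.45% had an NC peak and 5.34% an OE-KDM4A peak. In the windows it was 7 of 288 in NC (2.43%) and 9 of 288 in OE-KDM4A (3.12%). NC was thus at the level of the whole list. The OE-KDM4A share was the lower number beside its list, but it rests on 9 genes and the difference was not tested. The median distance of a peak to the nearest protein-coding gene was 445 kb in NC and 447 kb in OE-KDM4A on chromosome 17, 1284 and 717 kb on chromosome 18, and 856 and 1062 kb on chromosome 20. No peak overlapped any of 527 RefSeq promoter windows (250 bases before to 50 after a gene start) or 30 miRNA hairpins of the regions. Over the whole lists 0.0712% of promoter windows had an NC peak and 0.0769% an OE-KDM4A peak, and 0.064% of hairpins had one in each list, so a count of 0 sets the regions apart from neither list.

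In NC the genes on chromosome 17 were AKAP10, which anchors protein kinase A (−log10 q 1.99), the dicarboxylate transporter gene SLC13A2, SEZ6, which encodes a neuronal membrane protein, and the serotonin transporter gene SLC6A4 (1.57 each). On chromosome 18 they were PIEZO2, a mechanically gated channel gene (3.61), GNAL, a G protein subunit gene (2.23), and MIB1, a ubiquitin ligase gene of Notch signalling (2.81). Chromosome 20 had none. None of these peaks reached a −log10 q of 5.

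In OE-KDM4A the genes with the strongest peaks were both on chromosome 18. ZNF521, a zinc finger transcription factor gene, had a peak at 25312608 to 25312751 (−log10 q 11.7, fold enrichment 7.20), and ESCO1, whose product acetylates cohesin, had one at 21594500 to 21594636 (5.74 and 5.97). The tyrosine phosphatase gene PTPN2 had 2 peaks (1.90 for the stronger), and GNAL had 1 (1.85). The carboxypeptidase gene CPD on chromosome 17 (1.42) and PIGU on chromosome 20, a gene for attachment of membrane anchors (2.58), followed, with LOC124900389, LOC124904962 and LOC124904970. GNAL was the 1 protein-coding gene with a peak in each list, at different positions.

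The cell cycle, chromatin, beta-defensin and zinc finger groups of the windows are small. At the shares of 2.45% and 5.34% of all protein-coding genes given above, counts of 0 or 1 in them are near the background. Of 11 cell cycle genes, ESCO1 carried an OE-KDM4A peak and none carried an NC peak. None of 5 chromatin genes and none of 9 beta-defensin genes had one in either list. Of 4 zinc finger genes, ZNF521 had one in OE-KDM4A. A group of 62 genes was picked by symbol for families with copies elsewhere, and it also takes in symbols that start with LINC. Of these, the pseudogene CDC27P4 had a peak in NC (2.44), and none had one in OE-KDM4A. The same NC peak touched LOC102723618, which is not in the group. Among all 694 genes of the windows that are not protein-coding, 0.72% had an NC peak and 0.86% an OE-KDM4A peak. Other non-coding genes with an OE-KDM4A peak were LOC105379481 and LOC110467526 (10.4), DUX4L37 (5.45), RNA5SP528 and LOC110467522. A list of called peaks does not show that the mark was absent from the other genes.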

How the data were processed

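The deposited peak list of 1 ChIP library per condition was analysed, in the narrowPeak layout. The submitters' processing notes name Trimmomatic, Bowtie 1.1.2, MACS2 2.1.0 and hg38, without settings. Each deposited list holds, per summit, the authors' score, a fold enrichment (a linear ratio), a −log10 p and a −log10 q. Lines of equal start and end counted once, which left 1165 of 1234 NC lines and 3785 of 4187 OE-KDM4A lines. The unit of the score column is 10 times the −log10 q, as the deposited values show.

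Pileup and background were recovered from fold enrichment and −log10 p. In NC 98.8% and in OE-KDM4A 99.6% of the peaks had a whole-number pileup that matched −log10 p to 0.001. Shares have Clopper-Pearson intervals, and ratios of peak numbers the exact interval of 2 counts. Genes came from a RefSeq table of GRCh38.p14, without exons, so exon and intron are not given. Genome sequence of the peaks was not used here.

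The members and lists were chosen with earlier results of these data known. The sites named are, per region and list, the 3 peaks of highest −log10 q, the 2 highest found in 1 list alone, the widest, the one of highest fold enrichment and, per direction, the shared site that differed most. The genes named are those of the cell cycle, chromatin and zinc finger lists with a peak, and per region up to 10 protein-coding and 5 other genes by −log10 q. The clusters, the pair with equal values, the control step and the pileup by gene-free stretch were chosen after their values were seen. Alternatives were equal list lengths, other windows, stricter q or fold limits, other overlap rules and the joining of near peaks. Overlap and recovery were tested on simulated data. The tools were scipy 1.17.1, pandas 2.3.3, numpy 2.4.6 and matplotlib 3.10.9 under Python 3.11.15.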

Additional observations from a re-analysis of the deposited data

How the results depend on the processing

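Of 91 alternative values, 69 neither turned direction nor left the counting interval of the reported value (for counts of genes, 1.5 times that value). The ratio of peak numbers on chromosome 18 changed direction, to 0.611 with a −log10 q limit of 5, 0.583 with a limit of 10, 0.850 inside the gene-free stretch and 0.435 with both lists cut to equal length by −log10 q. The ratio on chromosome 17 was 3.29 at a fold enrichment of at least 5 and 1.03 with peaks within 10 kb joined. That on chromosome 20 was 2.96 with every summit line counted, 1.17 inside the gene-free stretch and 1.15 at equal length. At a fold enrichment of at least 5 the shared percentage of OE-KDM4A peaks was 20.3 on chromosome 17 and 15 on chromosome 20, and that of NC peaks on chromosome 20 was 42.9. With an overlap of at least 50% of each peak the last was 37.0. Within 5 kb the OE-KDM4A percentages were 67.0 on chromosome 17 and 43.5 on chromosome 20. On chromosome 18 the OE-KDM4A percentage was 57.1 with a −log10 q limit of 10 and 60 at equal length, and on chromosome 20 it was 37.7 at equal length. Sites of chromosome 20 with a −log10 q of at least 10 in both lists had a higher fold enrichment in OE-KDM4A in 92.3%. A lower pileup inside the 3 gene-free stretches was found at 93.9% of sites in units of the lowest background, a scale that can only raise this share. With each chromosome left out it was found at 80.5% to 90%. The alternatives for the pileup, the ratios outside the windows, the site counts without a cluster, and the ratios of 1.39 and 2.29 on chromosomes 17 and 20 without the largest cluster, were chosen after seeing the data. Fewer peaks enter at higher limits, and otherwise the cause was not tested. No paired analysis was possible because each condition has 1 library. Input depth and 1 library per condition limit every comparison.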
